A study of Rattus norvegicus with 8 samples.

Results

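Genes of the unfolded protein response and the integrated stress response were examined in primary rat thymocytes, which are T cells still maturing in the thymus, after culture with the synthetic glucocorticoid dexamethasone. The list holds 10 genes, namely Atf4, Ddit3, Trib3, Asns, Atf3, Eif2ak3, Ern1, Atf6, Ppp1r15a and Xbp1, and it was chosen by gene name. Of the 41012 non-control probes on the array, which carry 15445 gene symbols, 7 of the listed genes were found under their own name. Ppp1r15a was found under its older name Myd116 through its RefSeq accession NM_133546, and Ern1 was found under the name RGD1559716 through a synonym in the RefSeq gene table. No probe bore a name of Xbp1. The 9 measured genes have 1 probe each, and all 9 probes were well above background on all 8 arrays.

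Both groups came from male Sprague-Dawley rats that had been adrenalectomized, so that Control cells carried the loss of adrenal hormones as well. For each preparation the thymi of 3 rats were pooled, and the cells were kept for 6 hours in RPMI medium with serum, either without hormone (Control) or with 100 nM dexamethasone (Dex). Age was not given in the sources used here. The deposit holds 4 Control and 4 Dex arrays of 1 color, while the study's methods name 3 biological replicates per group without naming arrays, so all arrays were used and p-values measure only the spread between these arrays, which may be technical.

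Cells meet misfolded protein in the endoplasmic reticulum (ER) through the sensors PERK (Eif2ak3), IRE1 (Ern1) and ATF6. PERK and its sister kinases, which read amino acid shortage, viral RNA and heme loss, phosphorylate the initiation factor eIF2alpha, and this slows translation in general while the mRNA of the transcription factor ATF4 is translated more. ATF4 switches on genes for amino acid supply and, with CHOP (Ddit3), genes tied to cell death, whereas IRE1 splices Xbp1 mRNA and ATF6 is cleaved in the Golgi, so that protein levels and activities of this pathway are not read by an array.

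The sequences through which this pathway is known to act were searched in the RefSeq promoters of build GRCr8, each 250 bases before to 50 bases after a gene's start, on both strands, with 4 motifs of the pathway and 1 of the glucocorticoid receptor. The CARE, bound by ATF4 with C/EBP partners, was searched as TGATGNAA and lay in 3.98% of 33469 promoters. The ER stress element (ERSE), bound by NF-Y with ATF6 or XBP1, was searched as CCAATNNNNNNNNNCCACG and lay in 0.0657%. ERSE-II was searched as ATTGGNCCACG, whose reverse complement holds CCAAT as the ERSE does, and lay in 0.0508%. The CRE, bound by the ATF and CREB family, was searched as TGACGTCA and lay in 1.83%. The glucocorticoid receptor element was searched as GNACANNNTGTNC and lay in 0.439%.

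Promoter entries were found for 7 of the 10 listed genes, all but Atf3, Atf6 and Ern1. Of these, Trib3 held the CARE, Xbp1 the ERSE and Ppp1r15a the CRE. No promoter of the listed genes or of the 6 pathway lists below held the glucocorticoid receptor letters, which says only that these letters are not in this window. The CARE letters lay in 7 of 11 promoters of aminoacyl-tRNA synthetases, in 4 of 17 of amino acid supply genes, in 3 of 15 of stress and death targets, in 2 of 15 of the eIF2 arm, in 1 of 24 of ER folding genes and in none of 12 of the sensor list. The ERSE lay in 7 of 24 ER folding promoters and ERSE-II in 3 of 24. The windows below lie wholly upstream of the gene start and show the letters behind the gene groups described further on. Each is 30 bases of GRCr8, printed 5′ to 3′ on the strand that reads the motif as spelled, with the motif in capitals.

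Trib3, CARE, chr3:161275536-161275565, plus strand: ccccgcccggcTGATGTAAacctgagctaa
Chac1, CARE, chr3:126795953-126795982, minus strand: cctagcaggagTGATGCAAcggcggagaag
Nupr1, CARE, chr1:190645938-190645967, plus strand: caagccctgtcTGATGCAAtctggcctttt
Slc1a4, CARE, chr14:98761779-98761808, plus strand: tgctggctggaTGATGCAAcgctggaggcg
Iars1, CARE, chr17:15193658-15193687, plus strand: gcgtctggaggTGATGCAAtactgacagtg
Tars1, CARE, chr2:62114811-62114840, plus strand: agctaaccagcTGATGCAAcgggacgccag
Herpud1, CARE, chr19:10614873-10614902, plus strand: agggtgcgggcTGATGCAAcccgccgtggt
Herpud1, ERSE-II, chr19:10614811-10614840, minus strand: cgggcgctgATTGGGCCACGttgggcactg
Xbp1, ERSE, chr14:84604553-84604582, plus strand: acaggCCAATCGCAGACGGCCACGacccta
Hspa5, ERSE, chr3:38452968-38452997, plus strand: gttcaCCAATCGGAGGCCTCCACGacgggg
Hsp90b1, ERSE, chr7:23012445-23012474, minus strand: caaacCCAATCGAAAGGAGCCACGcttcgg
Ppp1r15a, CRE, chr1:105139644-105139673, minus strand: cgcctctccggTGACGTCAgcatagcgctg

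Herpud1, an ER membrane protein of the machinery that degrades misfolded ER proteins, held both a CARE and an ERSE-II.

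Counts of probes well above background ran from 24908 to 34472 by array, and Dex 1 and Dex 2 had the fewest, at 26471 and 24908. Control 2, 3 and 4 shared slide 1, Dex 1, 2 and 4 shared slide 2, and Control 1 and Dex 3 shared slide 3. Slide 1 thus held only Control arrays and slide 2 only Dex arrays. Between slides 1 and 2 an effect of Dex and a difference between slides cannot be told apart. Only slide 3 held both groups. Dex 3 with Dex 4 correlated at 0.990 over all probes, while Dex 1 and Dex 2 correlated with those at 0.919 to 0.943. The glucocorticoid-induced genes Tsc22d3 and Fkbp5 rose by 3.59 and 1.73 on the log2 scale and did not overlap between groups. Of 12 listed markers of double positive thymocytes 10 were measured, all 10 were well above background on all arrays, and none passed the test. Their summed normalized intensity, with Cd8b left out for a missing value, ran from 309211 to 342087 in Control and from 243735 to 344120 in Dex. Of the markers of other cells, 11 of 12 of macrophages, 5 of 7 of B cells, 9 of 10 of stroma and 3 of 5 of erythroid cells were measured, and Pecam1, at 1.36 higher in Dex on the log2 scale, was the only 1 that passed. Pdgfra, of the stroma list, was well above background on no array. Summed macrophage intensity ran from 4642 to 6289 in Control and from 4449 to 8898 in Dex, summed stroma intensity from 3793 to 5313 and from 4716 to 6533, summed erythroid intensity from 261 to 1315 and from 259 to 2349, and summed B cell intensity from 361 to 477 and from 240 to 583. The median log2 change was -0.19 for the double positive thymocyte, 0.15 for the macrophage, 0.39 for the stroma, 0.45 for the erythroid and -0.10 for the B cell markers. The part of these cell types in the results below was not tested.

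None of the 9 measured stress response genes passed the test of Dex against Control (limma, adjusted p over all probes under 0.05), where 0.778% of all probes passed. By the unadjusted p under 0.05, Ern1 alone passed, against 10.6% of all probes. Ern1 was also the only gene of the 9 whose 4 Dex arrays all lay above the 4 Control arrays, as 4.6% of all probes did. The log2 changes ran from -0.44 for Asns to 1.07 for Ern1, with a median of 0.20 beside 0.00 over all probes, and 6 of the 9 were higher in Dex. The median was 0.11 without Control 2 and 0.11 after normexp background correction. In this bulk RNA, fewer cells of a type and less RNA per cell cannot be told apart.

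**Figure D1:**
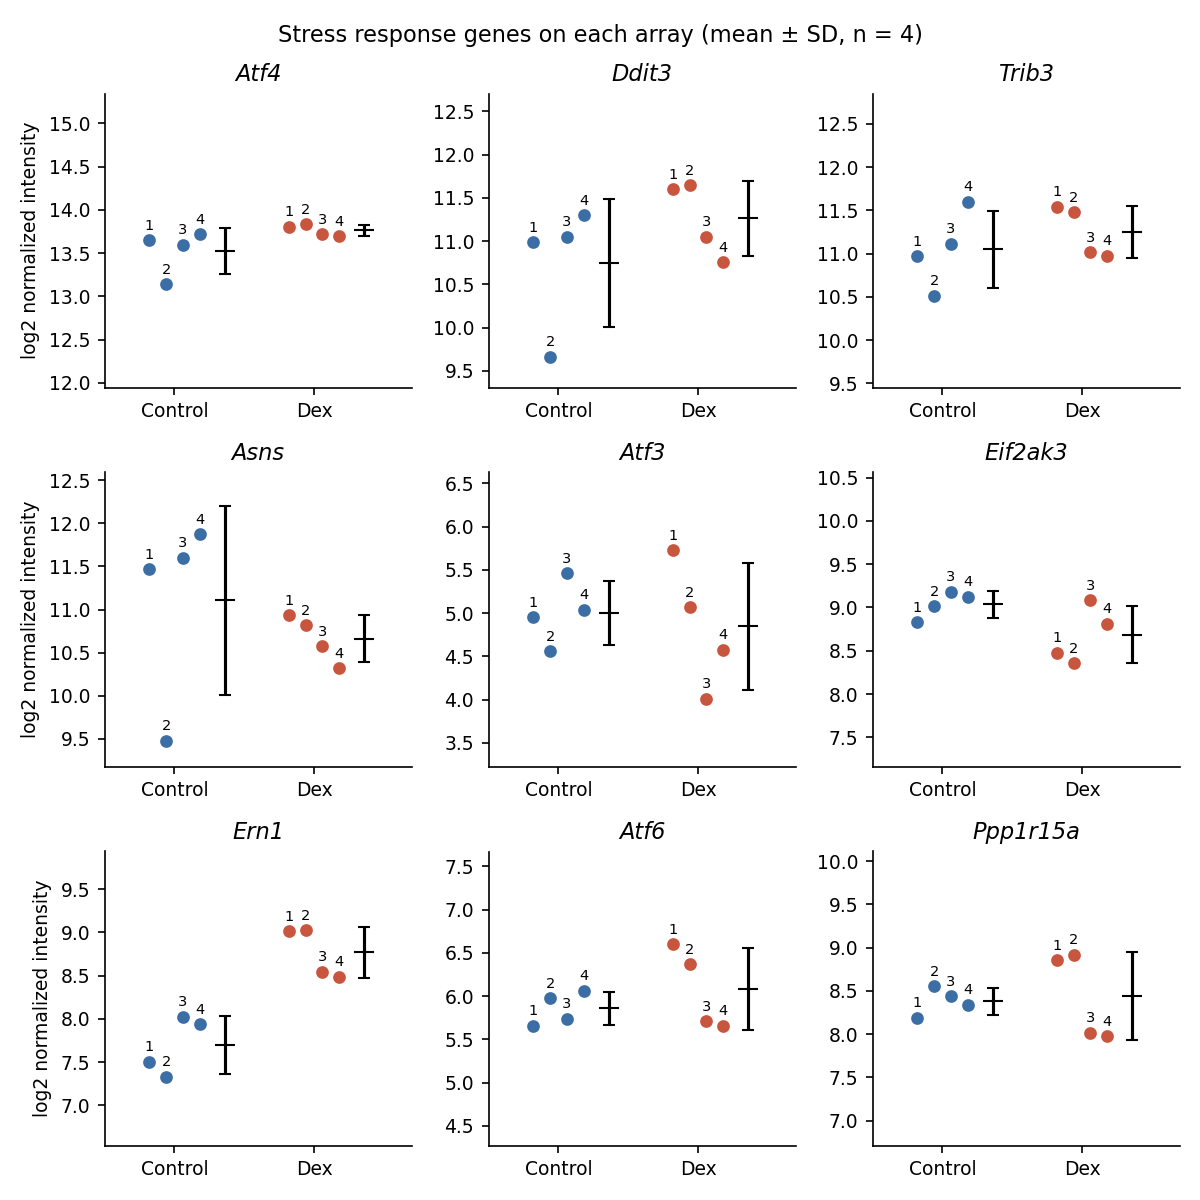
Log2 normalized intensity (vertical axis) of the 9 measured genes on each array, numbered by replicate, for Control (blue) and Dex (red), with the group mean ± SD (n = 4) in black; each panel has its own axis range. Ern1 is the gene whose groups do not overlap, Control 2 is the lowest point for Atf4, Ddit3, Trib3, Asns and Ern1, and Dex 1 and 2 lie above Dex 3 and 4 in all panels but Eif2ak3.

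Among the sensors, Ern1, the ER kinase and RNase that splices Xbp1 mRNA, showed the largest change of the 9 measured genes. Its probe, of transcript XM_001081576, lies at chr10:95805201-95805260 of rn3, the build to which the array's header refers probe positions. The log2 normalized intensity was 7.50, 7.33, 8.02 and 7.94 on Control 1 to 4 and 9.02, 9.03, 8.55 and 8.48 on Dex 1 to 4. Every Dex array was above every Control array, and the group means were 7.70 ± 0.33 and 8.77 ± 0.29 (SD, n = 4). The difference was 1.07 on the log2 scale (SE 0.23), or 2.10-fold with a 95% interval of 1.46 to 3.02, and it missed the threshold with limma at an adjusted p of 0.105. It lay between 0.95 and 1.18 whichever array was left out, and on the slide that Control 1 and Dex 3 shared it was 1.04. Of the 15 other settings Ern1 passed in 1, with the slide as a random block (adjusted p 0.0148, limma). In that fit the estimated slide correlation was negative, at -0.24, and 1838 of all probes passed, beside 319 in the reported fit. Over the 15 other settings the adjusted p of Ern1 ran from 0.0148 to 0.771.

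Eif2ak3, the ER kinase PERK, read 8.83, 9.02, 9.18 and 9.13 on Control 1 to 4 and 8.48, 8.36, 9.08 and 8.81 on Dex 1 to 4. Dex 1 and 2 were lowest, and Dex 3 lay within the Control range. Each Dex array lay below the Control array of its own replicate number, and the fit blocked on that number gave an adjusted p of 0.467 (limma). The difference of -0.36 (95% interval -0.82 to 0.11) had an adjusted p of 0.610 with limma. On the shared slide the sign was the other way, with Dex 3 above Control 1 by 0.26.

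Atf6, the ER membrane factor that is cleaved to reach the nucleus, read 5.66, 5.98, 5.74 and 6.06 in Control and 6.60, 6.37, 5.71 and 5.66 in Dex. Dex 1 and 2 were above all Control arrays, and Dex 3 and 4 were at the lower end of them. The difference of 0.22 (95% interval -0.36 to 0.80) was smaller than the spread of the Dex arrays, whose SD was 0.47, and its adjusted p was 0.815. It ran from 0.05 without Dex 1 to 0.37 without Dex 4, and was 0.11 after normexp and 0.05 on the shared slide.

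Downstream of eIF2alpha, Atf4 mRNA was nearly level. Its log2 intensity was 13.65, 13.14, 13.60 and 13.72 on Control 1 to 4 and 13.80, 13.84, 13.72 and 13.70 on Dex 1 to 4. Control 2 was the low value, and the Dex arrays stayed within an SD of 0.07. The difference was 0.24 (95% interval -0.15 to 0.63, adjusted p 0.705), 0.11 without Control 2 and 0.07 on the shared slide. The interval holds folds from 0.898 to 1.55.

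Ddit3, which encodes the death-linked factor CHOP, read 10.99, 9.66, 11.05 and 11.30 in Control and 11.60, 11.65, 11.05 and 10.75 in Dex. Control 2 lay 1.45 below the mean of the other Control arrays, while Dex 1 and 2 lay above those, Dex 3 within them and Dex 4 below them. The difference of 0.51 (95% interval -0.38 to 1.40, adjusted p 0.718) became 0.15 without Control 2, and it was 0.07 on the shared slide.

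Trib3, a pseudokinase induced by ATF4 and CHOP that restrains Akt, read 10.97, 10.51, 11.11 and 11.60 in Control and 11.54, 11.48, 11.02 and 10.97 in Dex. Control 4 was the highest and Control 2 the lowest of all 8 arrays. The difference of 0.20 (95% interval -0.40 to 0.81, adjusted p 0.844) became 0.03 without Control 2 and 0.39 without Control 4, and it was 0.05 on the shared slide.

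Asns, which makes asparagine and is a classic target of the amino acid response, read 11.47, 9.48, 11.60 and 11.88 in Control and 10.94, 10.82, 10.58 and 10.32 in Dex. All Dex arrays lay below Control 1, 3 and 4 and above Control 2. The difference was -0.44 (95% interval -1.60 to 0.71, adjusted p 0.816) with all arrays. Without Control 2 it was -0.99, with an adjusted p of 0.243, and on the shared slide it was -0.89, while it was -0.19 without Control 4.

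Atf3, a repressor induced by many stresses, was dim, at 4.95, 4.56, 5.46 and 5.04 in Control and 5.73, 5.07, 4.01 and 4.58 in Dex. Its Dex arrays spread over more than the Control range on both sides, and the difference of -0.16 (95% interval -1.01 to 0.70, adjusted p 0.919) changed sign without Dex 3, to 0.12. That difference was -0.94 on the shared slide and -0.03 after normexp. Ppp1r15a, the GADD34 subunit that guides the phosphatase back to eIF2alpha, read 8.19, 8.56, 8.44 and 8.34 in Control and 8.85, 8.92, 8.02 and 7.98 in Dex. Here Dex 1 and 2 lay above and Dex 3 and 4 below every Control array, so that the difference of 0.06 (95% interval -0.54 to 0.66, adjusted p 0.959) averaged over a split group, and it was -0.17 on the shared slide.

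**Figure D2:**
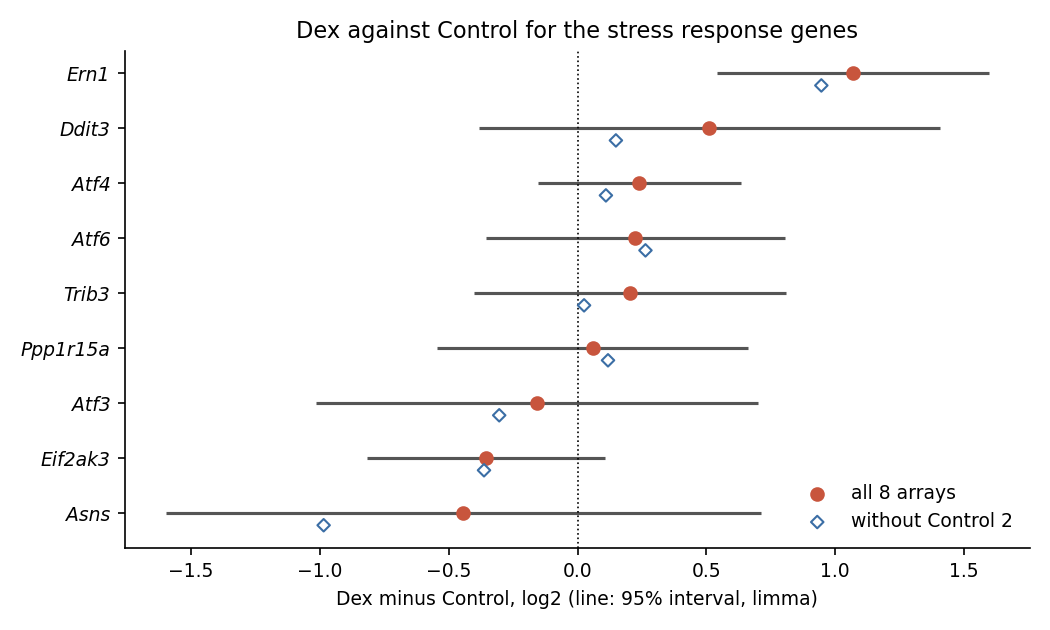
Dex minus Control on the log2 scale (horizontal axis) for the 9 measured genes, with the limma 95% interval from all 8 arrays as a line and the value without Control 2 as an open diamond. Only the interval of Ern1, 0.54 to 1.60, lies wholly on 1 side of 0, and Asns moves from -0.44 to -0.99 without Control 2.

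The Dex arrays fell into pairs for these genes. Dex 1 and 2 were both above Dex 3 and 4 in 8 of the 9 genes, where 48.3% of all probes had this order, and both below in 1, Eif2ak3, where 31.0% did. The order over all probes depended on the scaling. With 75th percentile scaling the median departure from the other Dex arrays was -0.33, -0.41, 0.31 and 0.35 on Dex 1 to 4 over all probes. Over the 9 genes it was 0.52, 0.62, -0.45 and -0.60. The gap between the pairs was 1.11 for Atf3, 0.89 for Ppp1r15a, 0.80 for Atf6, 0.72 for Ddit3 and 0.11 for Atf4 on the log2 scale. Dex 1 and 2 are also the arrays with the fewest probes above background, and the part of this in the split was not tested.

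Control 2 was the lowest Control array in 6 of the 9 genes, Atf4, Ddit3, Trib3, Asns, Atf3 and Ern1, beside 21.2% of all probes. Over the 9 genes its median departure from the mean of the other Control arrays was -0.52, with 7 lower, and Ppp1r15a and Atf6 were higher there by 0.23 and 0.16. For Atf4, Ddit3, Trib3 and Asns it was lower than the mean of the other Control arrays by a median of 1.08 on the log2 scale, with the departure running from -2.17 for Asns to -0.52 for Atf4. Over all probes the median departure was 0.01, and Control 2 had the most probes well above background, 34472. All 11 measured aminoacyl-tRNA synthetases, which charge tRNAs with amino acids, were lower in Control 2 than in the mean of the others, with a median of -0.68, and 10 of the 11 had their lowest Control value there. The lowest Control value lay on Control 2 for 10 of 19 amino acid supply genes and 9 of 18 stress and death targets, but for 2 of 17 genes of the eIF2 arm and 1 of 13 of the sensor list, with the ER folding list between at 9 of 27. Of the supply genes 13 of 19 and of the stress and death targets 12 of 18 were lower in Control 2 than in the mean of the others, and Nupr1, a CARE gene, was 0.78 higher there. Control 4 stood at the other end, above the mean of the other Control arrays in all 4 of Atf4, Ddit3, Trib3 and Asns (median 0.73) and in all 11 synthetases (median 0.58), where that mean holds Control 2.

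Single genes showed this more plainly. Slc7a3, which carries cationic amino acids into cells, read 8.14, 4.59, 6.84 and 7.82 on Control 1 to 4 and 6.23, 6.11, 5.01 and 5.00 on Dex 1 to 4. Slc1a4, a carrier of neutral amino acids, read 5.34, 3.00, 5.64 and 6.27 in Control and 5.69, 5.80, 5.07 and 5.23 in Dex. Cars1, the cysteine enzyme of the synthetase list, read 10.85, 9.43, 11.08 and 11.35 in Control and 11.10, 11.09, 10.69 and 10.52 in Dex. In each of these Control 2 was the lowest of all 8 arrays. The gap depended on the background correction, since the lowest departure of Control 2 among the supply genes was -3.01, that of Slc7a3, and -1.50 after normexp.

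The CARE letters can be set beside this pattern. Among the listed genes and the pathway lists together, 17 measured genes had the CARE letters in their promoter, of which 14 were lower in Control 2 than in the other Control arrays, with a median of -0.57. Of 78 without the letters 45 were lower, with a median of -0.03. Among all genes with a promoter entry, 207 of 378 with the letters were lower in Control 2, with a median of -0.04, and 5634 of 12162 without them, with a median of 0.02. The 6 measured synthetases with the letters had a median of -0.94, and the 4 without them a median of -0.57, all 10 being lower. Without the synthetases, 8 of 11 genes with the letters and 41 of 74 without them were lower, with medians of -0.44 and -0.03. Within the supply genes the counts were 2 of 4 with the letters and 9 of 12 without, and within the stress and death targets 2 of 3 and 9 of 12, so that the larger share lay with the genes without them. The medians ran the other way, at -0.43 with and -0.22 without the letters for the supply genes, and -0.44 and -0.28 for the targets. In the eIF2 arm 2 of 2 with and 3 of 13 without were lower, and in the ER folding list 1 of 1 and 10 of 20. These are descriptions of 1 array, the supply, synthetase and stress lists were made of known ATF4 and CHOP targets while the others were not, and no test was run.

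**Figure D3:**
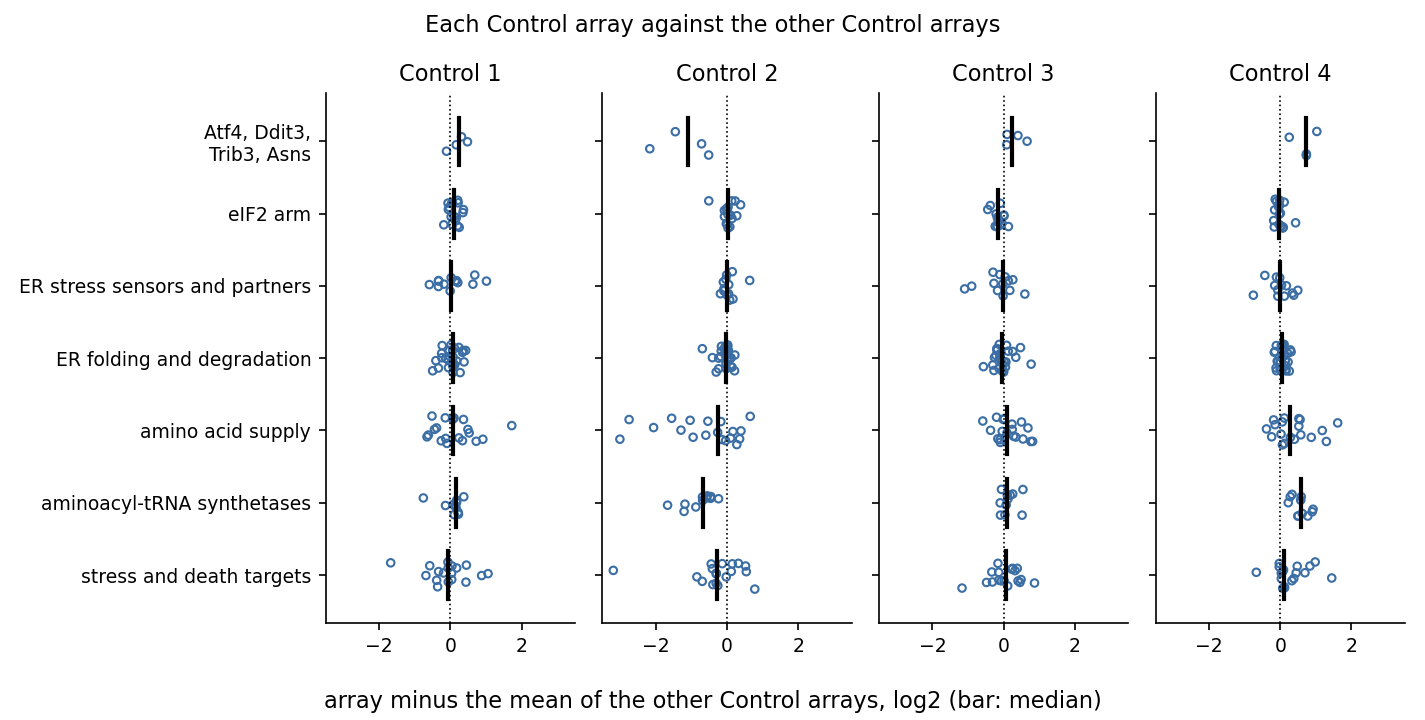
Each Control array minus the mean of the other 3 Control arrays on the log2 scale (horizontal axis, 1 panel per array), with a point per gene and a bar at the median, for Atf4, Ddit3, Trib3 and Asns together and for the 6 pathway lists. Control 2 lies low for those 4 genes, at a median of -1.08, and for the aminoacyl-tRNA synthetases, at -0.68, Control 4 lies high for both, at 0.73 and 0.58, and Control 2 lies near 0 for the eIF2 arm, the sensors and the ER folding genes.

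Of 110 genes in the 6 lists that give the rest of the pathway, 105 were measured. Of these, 4 passed the test, all higher in Dex where 0.563% of all probes passed in that direction, and all 4 were stress and death targets. The eIF2 arm, which holds the other eIF2alpha kinases, the phosphatase parts and the factors eIF2 and eIF2B, had none of 17 passing at an adjusted or an unadjusted p of 0.05 by the brightest probe, and a median change of 0.08. Its highest value was 0.36 for Ppp1r15b, the constant partner of the eIF2alpha phosphatase, and its lowest -0.24 for Eif2ak2, the kinase that reads viral RNA. Leaving out Dex 2 or Dex 4 took Ppp1r15b to 0.20 or 0.51 and Eif2ak2 to -0.41 or -0.07. Impact, a brake on the amino acid sensor GCN2, had 4 probes that disagreed, at 0.35, 0.40, -0.67 and -0.82. None passed after adjustment, and the latter pair had unadjusted p of 0.0051 and 0.0025 (limma). Of the 13 sensors, proteases and IRE1 partners none passed, and their median was 0.03. Tmbim6, the ER membrane protein also called BAX inhibitor 1, had the lowest value of the sensor list, -0.40 (adjusted p 0.434), and Creb3l1, a membrane-bound relative of ATF6, the highest of those above background on all arrays, 0.45, which ran from 0.27 without Dex 4 to 0.62 without Control 1.

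Of the 27 ER chaperones, folding enzymes and degradation factors, none passed by the brightest probe, 12 were higher and 15 lower in Dex, and the median was -0.10. All Dex arrays lay above all Control arrays in 2 of the 27 and below in 3, as in 4.6% and 4.51% of all probes. The main chaperone Hspa5 (BiP), the usual readout of this response, read 13.20, 13.20, 13.24 and 13.32 in Control and 13.25, 13.32, 12.95 and 13.04 in Dex. Its difference of -0.10 was within the spread of the Dex arrays. Hsp90b1 (GRP94) was at -0.34 with non-overlapping groups and an adjusted p of 0.475, while its other probe stood at 0.25 (adjusted p 0.641), of the other sign. Hspa5 and Hsp90b1 were named for the promoter windows above, outside the rule for named genes. The lowest of the list were Pdia4, a disulfide isomerase, at -0.44 and Creld2, a stress-induced ER protein, at -0.39, with adjusted p of 0.506 and 0.554.

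A pair of genes of ER-associated degradation stood at the other end of the list. Edem1, which helps pick misfolded glycoproteins for degradation, read 13.03, 12.76, 13.86 and 13.47 in Control and 14.69, 14.45, 15.72 and 14.94 in Dex on its brightest probe. The groups did not overlap, and the difference was 1.67 (SE 0.34, adjusted p 0.0888 with limma, and 0.0495 when blocked on the replicate number). Its other probes, also of XM_238366, gave 1.85 and 1.50 and passed, with adjusted p of 0.0142 and 0.0209. Herpud1 read 11.89, 11.68, 12.18 and 12.20 in Control and 12.95, 13.13, 12.73 and 12.73 in Dex, again without overlap. Its difference was 0.89 (SE 0.18) with an adjusted p of 0.0952, while its other probe gave 1.05 and passed at 0.0476. Both genes therefore passed or missed the threshold by the probe that stood for them.

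**Figure D4:**
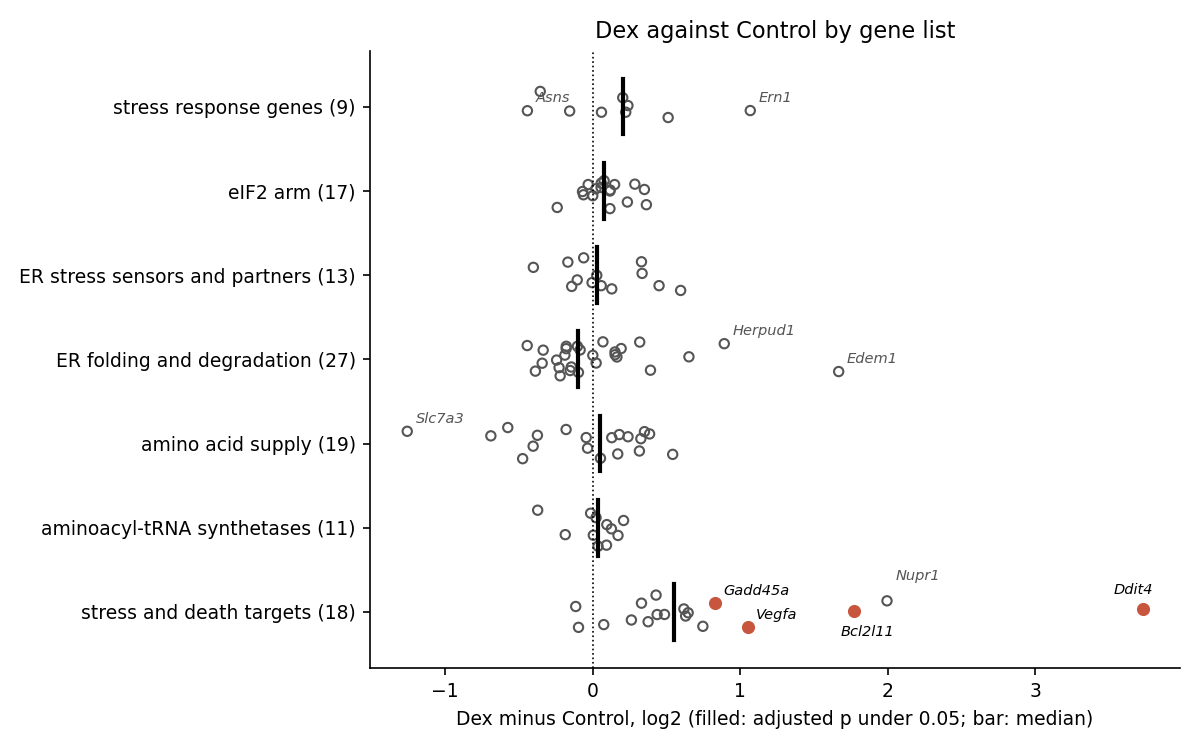
Dex minus Control on the log2 scale (horizontal axis) for the brightest probe of every measured gene, by list, with the number of genes in brackets, a bar at the median, and filled points where the adjusted p was under 0.05. The stress and death targets lie to the right, with a median of 0.55 (0.30 after normexp) and the 4 filled points Ddit4, Bcl2l11, Vegfa and Gadd45a, and the other medians lie between -0.10 and 0.20.

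No amino acid supply gene of 19 and no aminoacyl-tRNA synthetase of 11 passed by the brightest probe, with or without adjustment, and their medians were 0.05 and 0.04. The other probe of Slc7a1, a carrier of cationic amino acids, stood at 0.64 with an unadjusted p of 0.0025 and an adjusted p of 0.133 (limma). Without Control 2 the medians were -0.18 and -0.15, beside 0.01 over all probes, with 12 of 19 and 10 of 11 genes lower in Dex. Again none passed after adjustment. Control 2 was low in most of these genes, so leaving it out lowers their Dex minus Control values by construction. These counts therefore say nothing more on Dex. Slc7a3 had the lowest value of the supply genes, -1.26 (SE 0.76, adjusted p 0.640). It was -2.01 without Control 2 (adjusted p 0.256) and -0.83 without Control 1. Psat1, of serine synthesis, was at -0.69, but at -0.10 without Dex 4, -1.09 without Dex 1 and -0.10 after normexp background correction. The amino acid carriers Slc1a4 and Slc3a2 had the highest values of those above background on all arrays, 0.39 and 0.35. Without Control 2 they were -0.30 and 0.22, and after normexp Slc1a4 was at 0.05. Among the synthetases the range was from -0.37 for Gars1, the glycine enzyme, to 0.21 for Aars1, the alanine enzyme. Gars1 ran from -0.66 without Dex 2 to -0.11 without Dex 4. Cars1 was at 0.17 with all arrays and at -0.25 without Control 2.

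By the brightest probe, the stress and death targets held all the genes of the 6 pathway lists that passed. The lists were chosen with earlier results of these data known, so the counts below describe this list and are no test of the pathway. Whether ATF4 or CHOP had a part in these changes was not tested. Of 18 measured, 16 were higher in Dex, beside 20513 of all 41012 probes. At an unadjusted p under 0.05 (limma) 9 were higher, where 5.63% of all probes were. In 8 all Dex arrays lay above all Control arrays, as in 4.6% of all probes. After adjustment 4 passed, all higher, where 0.563% of all probes did. The median was 0.55, and 0.30 after normexp background correction. Ddit4 (REDD1), an inhibitor of mTORC1, read 9.28, 9.49, 8.89 and 9.34 in Control and 12.97, 12.86, 12.83 and 13.27 in Dex. It rose by 3.73 (SE 0.19, adjusted p 0.000153), or 13.3-fold, and passed whichever array was left out. Bcl2l11, which encodes the death factor Bim, read 5.73, 5.10, 5.30 and 5.47 in Control and 7.11, 7.66, 6.85 and 7.05 in Dex. It rose by 1.77 (SE 0.23, adjusted p 0.0142), and missed the threshold with the replicate block (adjusted p 0.121) and without Control 2, Control 3, Control 4 or Dex 1 (adjusted p from 0.0565 to 0.0702). The size of this rise depended on the background correction, being smaller after normexp as the closing section gives, and it was 1.12 on the shared slide.

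Vegfa, an angiogenic factor, rose by 1.05 (SE 0.16, adjusted p 0.0312) on its brightest probe, from 6.59 ± 0.02 to 7.64 ± 0.23 (SD, n = 4), while its other probe stood at -0.05. Gadd45a, a growth arrest gene, rose by 0.83 (SE 0.14, adjusted p 0.0484), from 12.21 ± 0.10 to 13.04 ± 0.12. Vegfa and Gadd45a missed the threshold with the replicate block, with adjusted p of 0.152 and 0.195, and when any single array was left out, with adjusted p from 0.0552 to 0.174. Both also missed it with 75th percentile scaling, with adjusted p of 0.130 and 0.286 (limma). On the shared slide their rises were 0.86 and 1.00. Nupr1, a stress-induced chromatin protein with the CARE letters in its promoter, read 6.13, 5.92, 4.46 and 4.83 in Control and 8.41, 9.13, 5.61 and 6.18 in Dex. Its difference of 2.00 (SE 0.82, adjusted p 0.438) rested largely on Dex 1 and 2, which were above every other array, and on the shared slide it was -0.52.

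Chac1, which degrades glutathione and is among the strongest ATF4 and CHOP targets, had the lowest but 1 value of the list, -0.10 (adjusted p 0.977). It read 8.82, 5.77, 8.82 and 9.25 in Control and 8.48, 8.28, 8.03 and 7.48 in Dex. All Dex arrays lay below Control 1, 3 and 4, and without Control 2 the difference was -0.90 with an adjusted p of 0.462. A second probe, of another accession (XM_342497), gave 1.02 with an adjusted p of 0.404, so that the probes disagreed in sign. Klhl24 had the lowest value, -0.12, and its other probe stood at 0.26.

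**Figure D5:**
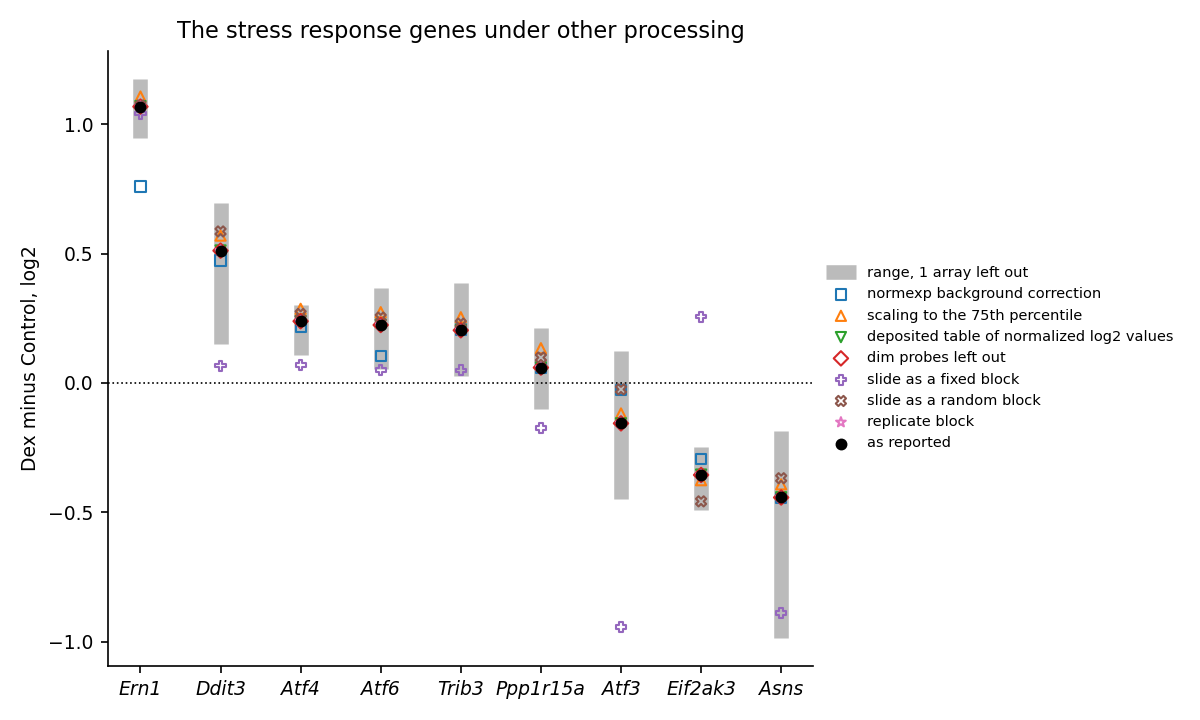
Dex minus Control on the log2 scale (vertical axis) for the 9 measured genes as reported (black), under each other processing (open symbols) and over the fits that left out 1 array (grey bars); the replicate block leaves the difference as it is. Ern1 stays between 0.76 and 1.18, and Eif2ak3, Ppp1r15a and Atf3 each cross 0 under at least 1 setting.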

How the data were processed

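Cy3-labeled RNA was hybridized to Agilent Whole Rat Genome arrays, of which 4 are labeled Control and 4 Dex. The authors extracted intensity values with Feature Extraction 9.5.3.1, which subtracts background, and the deposited series table holds log2 values after quantile normalization and a median polish per probe. The scanner output holds other columns, 0 or 1 flags deposited per spot for background, saturation and outliers. Here log2 processed intensities were quantile normalized and median polished after outlier spots were left out (16 missing values in 41012 probes), and the result was compared with the deposited table.

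limma 3.58.1 in R 4.3.3 (lmFit, eBayes) tested Dex against Control, two-sided, at an adjusted p of 0.05 (Benjamini-Hochberg, all probes), and was tested on simulated data. The brightest probe stood for a gene. Array names were updated through RefSeq accessions, symbols and synonyms, which gave 19959 probes a current symbol. Named genes are the 10 listed genes and, from each of 6 pathway lists, those that passed and the 2 highest and 2 lowest on probes well above background on all arrays, with Tsc22d3 and Fkbp5. Hspa5, Hsp90b1, Iars1 and Tars1 were named for their promoters, and Slc7a1 for its other probe, after the values were seen. The listed genes and lists were chosen with earlier results of these data known. The reported fit had no term for the replicate number, so its intervals and adjusted p ignore any pairing. Arrays of the same replicate number deviated together (correlations 0.397, 0.129, 0.550 and 0.184). A fit blocked on that number was therefore run as well, and its value is given where it changes a call. Some arrays of different number correlated as highly, with Control 1 and Dex 2 at 0.401, Control 3 and Dex 4 at 0.391 and Control 2 and Dex 1 at 0.188. Other settings are given in the closing section. The number of arrays limits the precision.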

Additional observations from a re-analysis of the deposited data

Results flagged for a closer look

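In 72 sets of 4 arrays, 2 held an array that stood apart from the rest by Dixon's test, of which chance marks about 1 in 20, and both were in Control 2. For Chac1, Control 2 read 5.77 while the nearest of the other Control arrays read 8.82 and the farthest 9.25, so that the gap took 0.875 of the whole range. For Impact, Control 2 read 7.25 with the nearest array at 6.89 and the farthest at 6.82, a gap of 0.834 of the range. Chac1 was low and Impact high in Control 2, and the 4 probes of Impact did not all move the same way between Dex and Control.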

How the results depend on the processing

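No stress response gene passed in the reported fit, and 1, Ern1, passed with the slide as a random block and at the methods' nominal thresholds (unadjusted p of 0.01, fold change of 1.2, here with limma); none passed when any array was left out. Over all probes 319 passed (231 higher), with 912 (497 higher) after normexp background correction, 166 (133 higher) with scaling to the 75th percentile, 1 with the slide as a fixed block, 1838 with the slide as a random block (estimated correlation -0.24), 81 (75 higher) with the replicate block, 1593 at the nominal thresholds, and from 96 (without Control 4) to 249 (without Dex 3) with 1 array left out. Of the pathway lists 4 genes passed, with 8 after normexp (7 higher), 2 with 75th percentile scaling, 0 with the slide as a fixed block, 8 with the slide as a random block, 2 with the replicate block (Ddit4 and Edem1), 8 at the nominal thresholds and 1 to 2 with 1 array left out. The replicate block changed the calls of Bcl2l11, Vegfa, Gadd45a and Edem1 and no other call of a named gene.

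With the slide as a fixed block, which compares Dex 3 with Control 1 alone, the sign turned for Eif2ak3 (0.26), Ppp1r15a (-0.17), Ppp1r15b (-0.11), Impact (-0.16), Pdia4 (0.15), Slc1a4 (-0.27), Cars1 (-0.16), Nupr1 (-0.52) and Klhl24 (0.43). It also turned for Ppp1ca with 75th percentile scaling (0.0033) and for Chac1 with the slide as a random block (0.0205). With 1 array left out the log2 difference ran from -0.45 to 0.12 for Atf3, -0.10 to 0.21 for Ppp1r15a, -0.30 to 0.79 for Slc1a4, -0.0921 to 0.40 for Aars1, -0.25 to 0.40 for Cars1, -0.90 to 0.27 for Chac1 and -0.21 to 0.00765 for Klhl24. After normexp the log2 difference was 0.86 for Bcl2l11, 0.68 for Vegfa, 1.11 for Nupr1, -0.70 for Slc7a3, 0.22 for Ppp1r15b and -0.23 for Gars1, all smaller than reported, and the brightest Impact probe ran from 0.18 without Dex 2 to 0.57 without Dex 3. The cause was not tested.

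The low Control 2 values of the synthetases held under 75th percentile scaling (median -0.67) and normexp (median -0.54), and so did those of the supply genes (medians -0.25 and -0.25); these checks were chosen after seeing the data. The 9 measured listed genes have 1 probe each, so no other probe could stand for them. Dim probes such as Atf3 limit the precision.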
